A study of Mus musculus with 3 samples.

Results

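The platelet-derived growth factor (PDGF) family was followed across the cell types of the developing mouse palate through its 4 ligand genes, Pdgfa, Pdgfb, Pdgfc and Pdgfd, and its 2 receptor genes, Pdgfra and Pdgfrb. The members were chosen by family name and not by level, and all 6 were found among the 32285 genes of the deposited matrices. Cell types were assigned to single cells from marker genes that include none of the 6, so that the level of a family member in a cell type is not fixed by how the type was drawn. The study profiled palatal shelves, the outgrowths of the upper jaw that meet and fuse to form the roof of the mouth, by droplet-based single-cell RNA sequencing. The embryos were wild-type C57BL/6J mice taken on embryonic days E13.5, E14.5 or E15.5, and triplets of values below follow that order. There was 1 library per stage, made from the pooled tissue of 3 embryos, and by the labels the groups differ in stage alone. The tissue was dissociated with the enzyme TrypLE and the cells were fixed in methanol. A count is a unique molecular identifier (UMI), one captured RNA molecule.

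PDGF ligands are secreted as dimers and act on a pair of receptor tyrosine kinases, PDGFRα and PDGFRβ, which activate phosphoinositide 3-kinase, Ras-MAPK and phospholipase C signalling. PDGF-A and PDGF-C bind PDGFRα, and mice that lack Pdgfra or Pdgfc have facial clefts. PDGF-B is made by endothelium and recruits PDGFRβ-bearing mural cells, the pericytes and smooth muscle of vessel walls, and PDGF-C and PDGF-D are secreted in a latent form that proteases must cleave.

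With 1 library per stage there is no replicate of a stage, so differences between stages have no test. Cell types were compared within each library, and no test across the libraries was run. Each level is the summed UMIs of a gene scaled to a common total for each cell type and library, as CPM, given with an exact Poisson 95% interval. Each fold difference has an exact 95% interval from the counts, and each share of cells an exact Clopper-Pearson interval. These intervals cover counting error only, not the spread between embryos or libraries. A difference is called 2-fold where log2 of the ratio of CPM + 1 was at least 1 in size. Levels are compared within a gene, never between genes.

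The libraries held 4236, 2079 and 3113 barcodes, with 5293977 to 11472663 UMIs each, and 3567, 1745 and 2574 cells were kept. Mesenchymal cells numbered 364, 1115 and 1692 and epithelial cells 60, 70 and 186. Endothelial cells numbered 8, 40 and 52, mural cells 6, 5 and 23, and myeloid cells 14, 43 and 77. The E13.5 library stands apart, because 1418 of its cells carried neuronal markers, against 89 and 132 later. 2 classes need care at the level of their markers. Of the 60 epithelial cells at E13.5, 31.7% lay in epithelial clusters, against 78.6% and 91.9% later, and 39 of the 60 lay in a cluster led by Pomc, Oc90 and Cga, genes of pituitary and inner ear, as well as Epcam. The mural class at E15.5 had UMIs for all 10 mural markers, at 2139 CPM in sum, but also 7962 CPM of the mesenchymal markers, and no cluster was mural.

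On GRCm38, as GENCODE annotates it, Pdgfa (ENSMUSG00000025856) lies on the minus strand of chromosome 5 at chr5:138976014-138997370 and Pdgfra (ENSMUSG00000029231) on the plus strand at chr5:75152292-75198215. Pdgfb (ENSMUSG00000000489) lies at chr15:79995874-80014977 on the minus strand, Pdgfc (ENSMUSG00000028019) at chr3:81036416-81214040 and Pdgfd (ENSMUSG00000032006) at chr9:6168584-6378850, both on the plus strand. Pdgfrb (ENSMUSG00000024620) overlaps 0 other annotated genes. The other 5 members each overlap at least 1 gene of the opposite strand, among them the antisense gene 6330403L08Rik at Pdgfa and the coding gene Ddi1 within Pdgfd. Whether the counting used strand is not given in the sources used here, so reads of these partners cannot be told apart from the members' own.

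The sequence before a start of transcription is shown for the 4 of the 6 members that had a promoter entry in RefSeq (GRCm38.p6). Each line gives the bases before a RefSeq start, 5′ to 3′ on the gene's strand, at chr5:138995038-138995194 (Pdgfa), chr3:81036166-81036415 (Pdgfc), chr9:6168236-6168485 (Pdgfd) and chr5:75152001-75152250 (Pdgfra). For Pdgfa, 157 of the 250 bases are shown, because the other 93 overlap an exon in GENCODE. The stretch shown for Pdgfa lies inside the gene's coordinates given above. Capitals mark a match to TATAAA, the core of the TATA box, or to GGGCGG or CCAAT, the GC and CCAAT boxes, searched on both strands.
Pdgfa: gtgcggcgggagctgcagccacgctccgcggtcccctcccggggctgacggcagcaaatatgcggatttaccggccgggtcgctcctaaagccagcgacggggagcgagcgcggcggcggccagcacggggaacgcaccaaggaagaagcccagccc
Pdgfc: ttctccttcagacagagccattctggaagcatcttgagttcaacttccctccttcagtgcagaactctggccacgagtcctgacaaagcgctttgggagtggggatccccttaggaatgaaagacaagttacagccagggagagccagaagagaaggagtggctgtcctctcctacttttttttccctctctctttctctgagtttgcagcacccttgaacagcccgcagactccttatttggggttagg
Pdgfd: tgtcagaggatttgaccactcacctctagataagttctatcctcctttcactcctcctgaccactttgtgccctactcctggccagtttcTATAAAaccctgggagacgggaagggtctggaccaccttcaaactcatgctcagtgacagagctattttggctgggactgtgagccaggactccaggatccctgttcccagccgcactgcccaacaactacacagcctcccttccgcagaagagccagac
Pdgfra: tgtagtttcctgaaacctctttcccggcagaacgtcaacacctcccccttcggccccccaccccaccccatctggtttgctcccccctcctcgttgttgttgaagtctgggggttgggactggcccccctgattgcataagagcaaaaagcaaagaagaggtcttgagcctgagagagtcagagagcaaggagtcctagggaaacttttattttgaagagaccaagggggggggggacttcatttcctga

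Over 32851 RefSeq windows of 250 bases, 32.7% held GGGCGG or its reverse, 12.4% TATAAA and 33.8% CCAAT. Pdgfd held 1 TATAAA, starting 160 bases before its start (position -160). Pdgfa held 2 copies of CCGCCC, the reverse of GGGCGG, both in the stretch not shown. RefSeq lists a further Pdgfa start, not shown. The Pdgfc and Pdgfra windows held 0 matches to the 3 motifs. The Pdgfa window was the richest of these 4 in G and C, at 72.4% with 28 CG pairs, against a median of 52.4% and 6.0 pairs over all windows. The windows of Pdgfc, Pdgfd and Pdgfra were near that median, at 50.8%, 53.6% and 54.4%, with 3, 3 and 4 CG pairs.

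Among classes with at least 20 cells, Pdgfra was highest in mesenchymal cells and Pdgfrb in mesenchymal or, at E15.5, mural cells, while Pdgfa and Pdgfc were highest in epithelium and Pdgfb in endothelium, which had 8 cells at E13.5. Pdgfd was highest in mesenchyme at E13.5 and in endothelium, mural cells and mesenchyme at E15.5. Mesenchymal cells held 190 of 439, 669 of 792 and 1103 of 1192 Pdgfra UMIs, and at E13.5, where most cells were of other classes, cells that met no gate held 209. In epithelium against mesenchyme at E15.5, 3 members were at least 2-fold higher (Pdgfa, Pdgfb and Pdgfc), where 15.3% of 11973 genes were, and 3 were at least 2-fold lower (Pdgfd, Pdgfra and Pdgfrb), where 16.2% were. At E13.5, Pdgfa and Pdgfc were past 2-fold higher and both receptors lower, Pdgfd lay between the limits, and Pdgfb had 0 UMIs in both tissues. The share of all genes was then 13.7% higher and 20.4% lower. At E14.5 the same 4 members were past the limits, against 18.1% and 18.5%, although Pdgfc was not when only epithelial cells in epithelial clusters were counted (log2 0.86) or those with stratified or simple markers (log2 0.59), and Pdgfb, with 1 UMI in each tissue, did not pass the filter of a mean of 5 CPM.

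**Figure D1:**
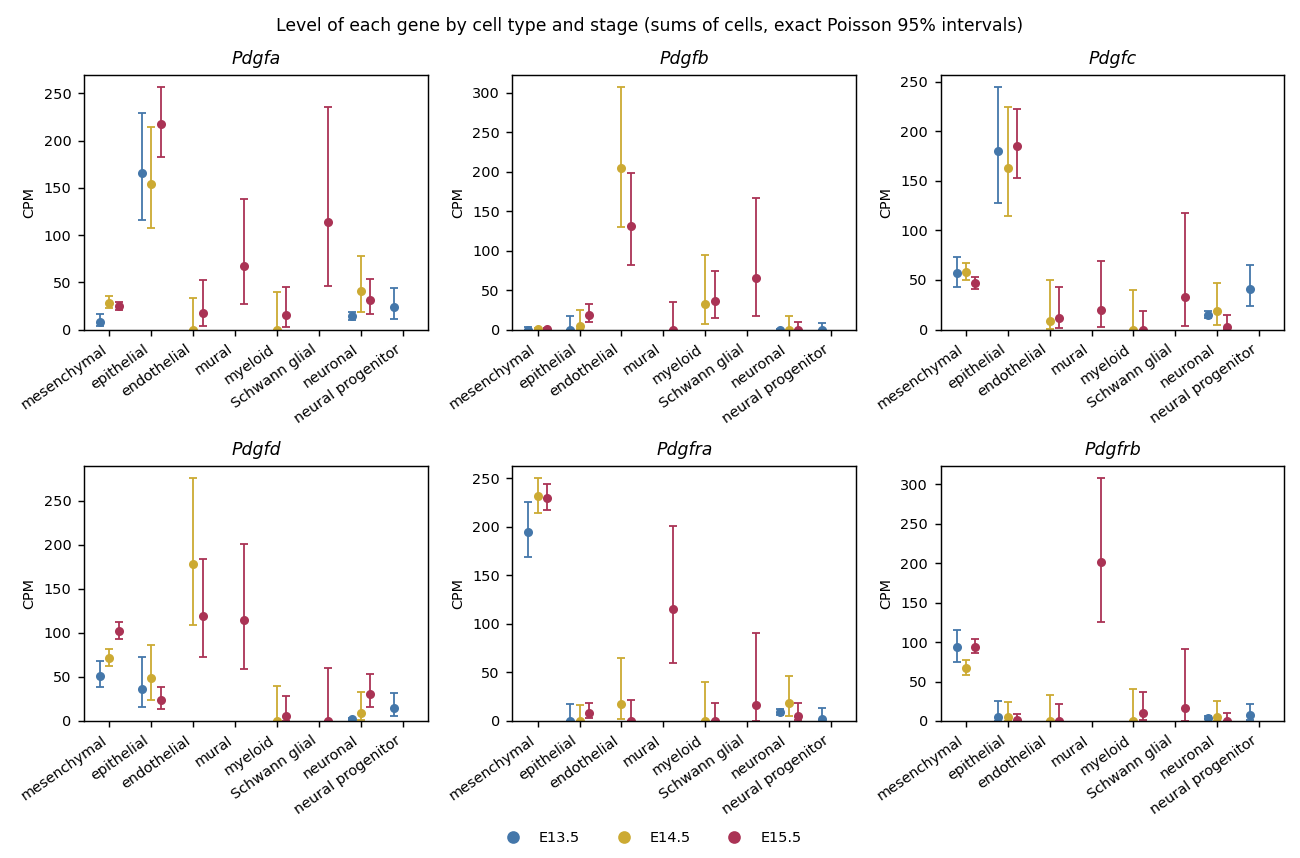
Level of each of the 6 genes (CPM, linear axis from 0, scaled per panel) in every cell type with at least 20 cells, by stage. Points are sums of cells of 1 library and bars are exact Poisson 95% intervals. Pdgfa and Pdgfc are highest in epithelium (218 and 185 CPM at E15.5), Pdgfb in endothelium, and Pdgfra in mesenchyme.

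Pdgfa, the ligand of PDGFRα, had 36, 35 and 139 UMIs in epithelial cells. Its CPM there were 166 (116 to 229), 154 (107 to 214) and 218 (183 to 257). In mesenchymal cells it had 8, 82 and 118 UMIs, or in CPM 8.23 (3.55 to 16.2), 28.4 (22.6 to 35.2) and 24.6 (20.4 to 29.5). The epithelial interval lay above the mesenchymal one in each library. Epithelium was 20.1-fold higher at E13.5 (9.21 to 50.2), 5.42-fold at E14.5 (3.54 to 8.15) and 8.85-fold at E15.5 (6.87 to 11.4).

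Within epithelium at E15.5, Pdgfa was concentrated in the stratified cells, those with keratins of squamous epithelium such as Krt5 and Krt14. They had 110 UMIs, 335 CPM (276 to 404), in 109 cells. Simple epithelial cells, with markers such as Krt8 and Krt18, had 22 UMIs, 86.4 CPM (54.2 to 131), in 59 cells, which makes stratified cells 3.88-fold higher (2.44 to 6.44). At this stage 16.3% of all genes were at least 2-fold higher in stratified cells. At E14.5 the levels were 190 CPM from 18 UMIs and 127 CPM from 14 UMIs, and the 1.49-fold ratio had an interval on both sides of 1 (0.702 to 3.24), where 30.3% of genes were at least 2-fold higher. At E13.5 stratified cells numbered 11 and are given no comparison.

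Among classes with at least 20 cells, the next level of Pdgfa after epithelium at E15.5 was in Schwann glial cells, with 7 UMIs and 114 CPM (45.8 to 235) in 24 cells, and 1.91-fold below epithelium with an interval that includes 1 (0.904 to 4.85). Schwann glial cells at E14.5 numbered 15, with 9 UMIs and 157 CPM. Below them at E15.5 came mural cells at 67.2 CPM, neuronal cells at 30.9, mesenchyme at 24.6, endothelium at 17.9 and myeloid cells at 15.3, and no neighbours in this order differed beyond counting error. Among classes of that size at E13.5 and E14.5, epithelium stood above the next type, neural progenitors at 24.0 CPM (6.91-fold, 3.36 to 15.6) and neuronal cells at 40.9 CPM (3.76-fold, 1.77 to 8.90).

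Pdgfc, the ligand of PDGFRα secreted in latent form, was also highest in epithelium among classes with at least 20 cells. In epithelial cells it had 39, 37 and 118 UMIs, or in CPM 180 (128 to 245), 163 (115 to 224) and 185 (153 to 222). In mesenchyme it had 55, 168 and 223 UMIs, or in CPM 56.6 (42.6 to 73.6), 58.1 (49.7 to 67.6) and 46.6 (40.7 to 53.1). The gated epithelial levels did not differ between stages beyond counting error, although most of the E13.5 cells lay outside epithelial clusters. In the epithelial cluster led by Krtdap, Krt13 and Krt5, with 23, 54 and 176 cells, Pdgfc was 401 CPM (282 to 552), 207 (140 to 293) and 202 (167 to 242), and the E13.5 interval did not overlap that of E15.5. Mesenchyme at E15.5 was 0.801-fold that at E14.5 (0.653 to 0.985), a difference not seen with 6 clusters weighted equally (log2 0.0765 in place of -0.31) and with an interval that includes 1 without osteogenic, chondrogenic and cycling cells (0.867-fold, 0.672 to 1.12). Epithelium was 3.17-fold (2.05 to 4.87), 2.80-fold (1.90 to 4.01) and 3.97-fold (3.15 to 4.99) above mesenchyme. Counting only the epithelial cells that lie in epithelial clusters, a check added after seeing the data, the E14.5 log2 ratio was 0.86 in place of 1.47. With the stratified and simple cells alone, also added after seeing the data, it was 0.59 with a counting interval that includes 0 (-0.19 to 1.30), and 1.76 and 1.87 at E13.5 and E15.5.

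Unlike Pdgfa, Pdgfc did not differ between gated stratified and simple epithelium at E15.5 beyond counting error. It had 189 CPM from 62 UMIs and 153 CPM from 39 UMIs, a 1.23-fold ratio (0.814 to 1.89). Between epithelial clusters it did differ at E15.5. That led by Krtdap, Krt13 and Krt5 had 202 CPM (167 to 242), and that led by Bpifa1 and Lypd2 had 92.7 CPM (68.8 to 122). At E14.5 stratified cells were higher, with 14 UMIs against 4, 148 and 36.4 CPM (4.06-fold, 1.28 to 17.0). Epithelial cells of neither kind held 19 of the 37 epithelial UMIs at E14.5, in 10 cells of which 3 had any and 5 had just the 3 markers the gate requires, 830 CPM. At E15.5 they held 17 UMIs in 18 cells, 308 CPM. Mesenchyme came next among classes with at least 20 cells. At E13.5 it did not differ from neural progenitors, which had 17 UMIs and 40.8 CPM (1.39-fold, 0.793 to 2.55). Myeloid cells had 0 UMIs of Pdgfc in all 3 libraries, with an exact upper limit of 18.8 CPM at E15.5.

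Pdgfb, the endothelial ligand of PDGFRβ, had 8, 39 and 60 UMIs among all cells kept. Endothelial cells had 1 UMI in 8 cells at E13.5. They had 23 UMIs at E14.5, 205 CPM (130 to 308), and 22 at E15.5, 131 CPM (82.2 to 199). Mesenchymal cells had 0, 1 and 3 UMIs, at most 0.626 CPM. The endothelial level was 593-fold the mesenchymal one at E14.5 (96.3 to 24420) and 209-fold at E15.5 (62.9 to 1093). The width of these intervals comes from the 1 and 3 mesenchymal UMIs. Among all genes, 17.5% and 16.1% were at least 2-fold higher in endothelium, and 26.8% and 25.6% lower.

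The 2 endothelial levels did not differ beyond counting error (E14.5 over E15.5 1.56-fold, 0.833 to 2.94). Myeloid cells came next at E14.5, with 3 UMIs and 32.5 CPM, and endothelium was 6.31-fold above them (1.91 to 32.9). At E15.5 the order was endothelium, Schwann glial cells with 4 UMIs (65.1 CPM), myeloid cells with 7 (35.8 CPM) and epithelium, and no neighbours among these differed beyond counting error. Epithelium had 0, 1 and 12 UMIs of Pdgfb. Of the 12 at E15.5, 11 were in stratified cells (33.5 CPM, 16.7 to 60) and 0 in simple cells. Stratified cells were 2.85-fold above a limit of 3 counts over the simple cells, with a counting interval of the fold from 1.95. Pdgfb had 0 UMIs in neuronal cells in all 3 libraries, including 1418 cells at E13.5.

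Pdgfd, the ligand of PDGFRβ secreted in latent form, was found in mesenchyme and endothelium. Mesenchymal cells had 50, 206 and 489 UMIs, or in CPM 51.4 (38.2 to 67.8), 71.3 (61.9 to 81.7) and 102 (93.3 to 112), and the 3 libraries were in the order of stage. Endothelial cells had 20 UMIs in each later library, at 178 CPM (109 to 276) and 119 CPM (72.8 to 184), after 0 UMIs in 8 cells at E13.5. Endothelium was 2.50-fold above mesenchyme at E14.5 (1.50 to 3.97) and 1.17-fold at E15.5 (0.707 to 1.82). At E15.5 endothelium, mural cells (12 UMIs, 115 CPM) and mesenchyme did not differ from one another in order beyond counting error. Mesenchyme was 3.31-fold above the next type, neuronal cells (1.88 to 6.45), where 23.7% of genes were at least 2-fold lower in neuronal cells and 19.9% higher.

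Epithelium had 8, 11 and 15 UMIs of Pdgfd, at 36.8, 48.4 and 23.5 CPM. It was within counting error of mesenchyme at E13.5 and E14.5 (0.716-fold, 0.293 to 1.52, and 0.678-fold, 0.333 to 1.24), and mesenchyme was 4.34-fold higher at E15.5 (2.61 to 7.82). With cell types taken from clusters, the E13.5 log2 ratio of epithelium to mesenchyme was 1.01 in place of -0.47. Of the E13.5 epithelial cells, only those in epithelial clusters gave log2 ratios of 4.42 for Pdgfa, 2.23 for Pdgfc and 0.27 for Pdgfd, beside 4.17, 1.65 and -0.47 with all 60.

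Between stages in epithelium, 21.7% of 11571 genes were past 2-fold upward from the first to the last library. Pdgfa was 1.32-fold (0.906 to 1.95), Pdgfc 1.03-fold (0.712 to 1.52) and Pdgfd 0.639-fold (0.254 to 1.74), each with an interval that includes 1. In the cluster led by Krtdap, Krt13 and Krt5, Pdgfc was lower in the last library than in the first, as given above. Pdgfd there was 152 CPM (82.9 to 254), 40 (14.7 to 87) and 36.9 (22.8 to 56.3), also with no overlap between the first and last, while Pdgfa was 292 CPM (193 to 425), 300 (219 to 401) and 262 (221 to 307). So the result for Pdgfc and Pdgfd depends on which E13.5 cells are counted as epithelium. Pdgfb had 12 UMIs against 0, and the counting interval of its fold, which starts at 0.947, includes 1.

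**Figure D2:**
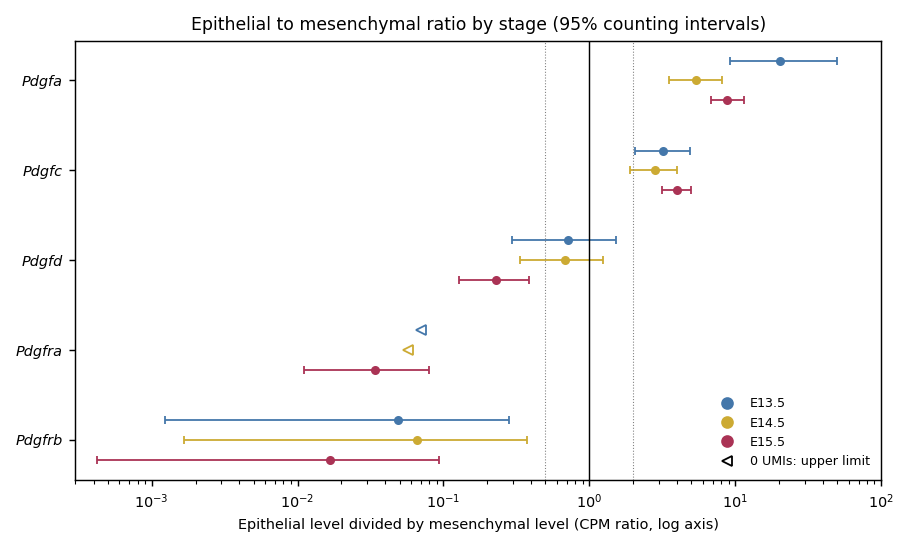
Epithelial level divided by mesenchymal level for 5 members at each stage (log axis), with 95% counting intervals. Dotted lines mark 2-fold and open triangles are upper limits where epithelium had 0 UMIs. Pdgfa and Pdgfc lie right of 1 in all 3 libraries, both receptors left of it, and Pdgfd left of it at E15.5. Pdgfb is left out for its low counts in mesenchyme.

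Pdgfra, the receptor of PDGF-A and PDGF-C and a common marker of embryonic mesenchyme, had 190, 669 and 1103 UMIs in mesenchymal cells. In CPM this was 195 (169 to 225), 232 (214 to 250) and 230 (217 to 244). Epithelial cells had 0, 0 and 5 UMIs, with 7.84 CPM (2.55 to 18.3) at E15.5. Mesenchyme was 14.1-fold at E13.5 and 17.6-fold at E14.5 above a limit of 3 counts over the epithelial cells (counting intervals from 11.4 and 14.2). At E15.5 it was 29.4-fold higher (12.6 to 90.6). Epithelial clusters had more Pdgfra at E14.5 and E15.5. That led by Krtdap, Krt13 and Krt5 had 20 and 33.3 CPM, and that led by Bpifa1 and Lypd2 had 33.4 and 37.1. Mesenchymal clusters had 181 to 322 and 179 to 342 CPM, so the folds between clusters are smaller at these stages. Endothelial cells had 0, 2 and 0 UMIs and gated myeloid cells 0 in all 3 libraries. The myeloid cluster, with 32, 80 and 119 cells, had 2, 14 and 7 UMIs, at 19, 62 and 22.9 CPM. Neuronal cells had 38, 4 and 2 UMIs, at 9.36, 18.2 and 5.15 CPM.

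Pdgfrb, the receptor of PDGF-B and PDGF-D, had 91, 193 and 452 UMIs in mesenchymal cells, or in CPM 93.6 (75.4 to 115), 66.8 (57.7 to 76.9) and 94.4 (85.9 to 104). E14.5 was the lowest of the 3, and its interval overlapped that of E13.5 and not that of E15.5. Epithelium had 1 UMI at each stage, and mesenchyme was 20.3-fold (3.56 to 812), 15.2-fold (2.70 to 603) and 60.2-fold (10.8 to 2382) higher. At E15.5 the epithelial cluster led by Krtdap, Krt13 and Krt5 had 4 UMIs, 7.02 CPM. That led by Bpifa1 and Lypd2 had 12 UMIs, 22.2 CPM. Mesenchymal clusters then had 83.4 to 197 CPM, so the E15.5 fold is smaller between clusters. Endothelial cells had 0 UMIs in all 3 libraries. Mesenchyme was 2.50-fold above the limit of 3 counts at E14.5 and 5.28-fold at E15.5 (counting intervals from 2.01 and 4.27).

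At E15.5 the highest Pdgfrb level was in the mural cells, with 21 UMIs in 23 cells, 201 CPM (125 to 308), 2.13-fold above mesenchyme (1.31 to 3.30). Among all genes, 15.2% were at least 2-fold higher in these mural cells. The few mural cells of the earlier libraries had 9 UMIs in 6 cells (554 CPM) and 4 UMIs in 5 cells (260 CPM). Pdgfra in the mural cells at E15.5 had 12 UMIs, 115 CPM (59.5 to 201), below mesenchyme, which was 2.00-fold higher (1.14 to 3.88). This class also held the mesenchymal markers given above, and their part in the Pdgfra level was not tested. Mural cells of the earlier libraries had 0 UMIs of Pdgfra.

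Shares of cells with a UMI were compared after each cell was thinned to 1500 UMIs, leaving out 118, 423 and 613 shallower mesenchymal cells and 8, 14 and 52 epithelial ones. A UMI of Pdgfra was found in 24.8% (19.5 to 30.7), 25.1% (22 to 28.6) and 27.7% (25.1 to 30.5) of mesenchymal cells. The same share in neuronal cells, which should lack most of this signal, was 0.888%, 3.33% and 0%, from median depths before thinning of 2240, 1970 and 2450 UMIs, against 2190, 1880 and 2050 in mesenchyme. Pdgfrb was found in 15% (10.8 to 20.1), 10.4% (8.23 to 12.9) and 11.6% (9.74 to 13.6) of mesenchymal cells, and in 0.690%, 0% and 0% of neuronal ones. Without thinning the mesenchymal shares were 36.5%, 35.2% and 38.9% for Pdgfra and 21.2%, 14.4% and 19.5% for Pdgfrb. At the fixed depth the intervals of each receptor overlapped between stages.

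In epithelium at that depth, Pdgfa was found in 26.9% (15.6 to 41.0), 23.2% (13.0 to 36.4) and 27.6% (20.2 to 36.0) of cells, and Pdgfc in 23.1% (12.5 to 36.8), 16.1% (7.62 to 28.3) and 23.1% (16.3 to 31.2). The unthinned shares were 35%, 34.3% and 39.8% for Pdgfa and 36.7%, 21.4% and 29.6% for Pdgfc. In mesenchyme at the fixed depth Pdgfa was found in 1.22%, 4.05% and 3.43% of cells and Pdgfc in 8.54%, 7.08% and 6.58%. In neuronal cells these shares were 1.97%, 8.33% and 6.32% for Pdgfa and 1.68%, 1.67% and 0% for Pdgfc. The mesenchymal Pdgfa share was below the neuronal one in each library, and whether it exceeds background was not tested. For Pdgfa the epithelial interval lay above the mesenchymal one in all 3 libraries, and for Pdgfc at E15.5, while at E13.5 and E14.5 the Pdgfc intervals overlapped. Any of the 4 ligands was found in 46.2%, 39.3% and 44.0% of epithelial cells and either receptor in 0%, 1.79% and 2.24%. In mesenchyme either receptor was found in 37.0% (30.9 to 43.4), 32.9% (29.5 to 36.6) and 35.9% (33.0 to 38.8) of cells. Any ligand was found there in 13.0%, 17.5% and 18.5%, beside any ligand in 3.94%, 10% and 8.42% of neuronal cells.

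**Figure D3:**
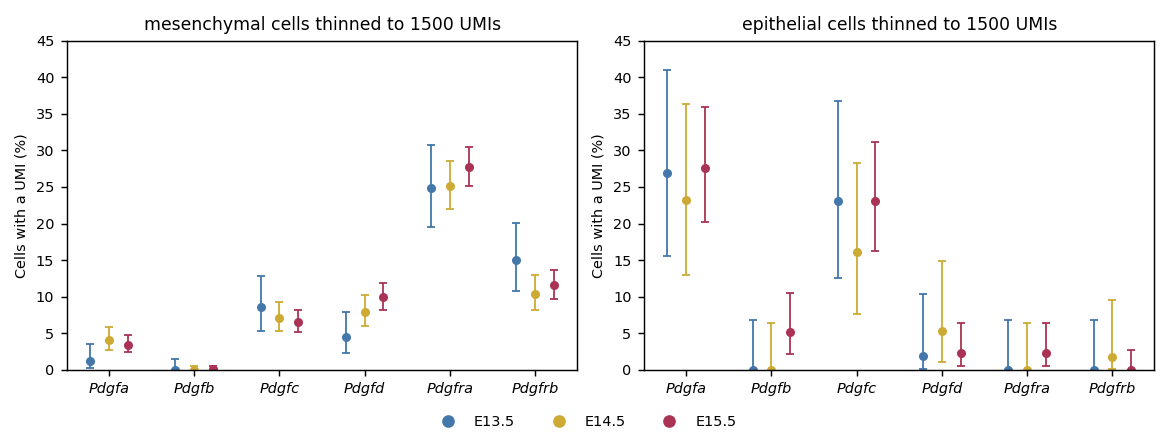
Share of cells with at least 1 UMI of each gene (percent) among mesenchymal and epithelial cells thinned to 1500 UMIs, by stage, with exact Clopper-Pearson 95% intervals. Pdgfra is found in 24.8% to 27.7% of mesenchymal cells and at most 2.24% of epithelial cells, and Pdgfa in 23.2% to 27.6% of epithelial cells and at most 4.05% of mesenchymal cells.

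Cells with UMIs of 2 members were counted at the same depth. Among mesenchymal cells with a Pdgfra UMI, Pdgfrb was found in 11.5%, 10.3% and 12.4%, and among those without, in 16.2%, 10.4% and 11.3%, with intervals that overlap at each stage. Without thinning these were 21.1% against 21.2%, 20.6% (16.7 to 25) against 11.1% (8.88 to 13.6), and 24.3% (21.1 to 27.8) against 16.4% (14.2 to 18.8), and at E14.5 and E15.5 the intervals did not overlap, so the result depends on the depth setting. Mesenchymal cells with both a ligand and a receptor UMI made up 3.66% (1.69 to 6.83), 5.64% (4.04 to 7.62) and 5.75% (4.43 to 7.31). Of the neuronal cells, 0 had both, with exact upper limits of 0.363%, 5.96% and 3.81%. In epithelium at E15.5, Pdgfc was found in 15 of 37 cells with Pdgfa, 40.5% (24.8 to 57.9), and in 16 of 97 without, 16.5% (9.73 to 25.4). Without thinning these shares were 36.5% (25.6 to 48.5) and 25% (17.3 to 34.1), and the intervals overlap at both depths. At E13.5 and E14.5 the thinned shares were 21.4% against 23.7% and 15.4% against 16.3%.

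Across the stages in mesenchyme, 5 of the 6 members passed the low-count filter (a mean of 5 CPM over the libraries), and Pdgfb did not. From E13.5 to E15.5, 1 of the 5, Pdgfa, was at least 2-fold higher (2.99-fold, 1.47 to 7.10), where 10.4% of 11499 genes were, and 0 were at least 2-fold lower, where 5.03% of genes were. This difference rests on 8 UMIs at E13.5 and was not past 2-fold without osteogenic, chondrogenic and cycling cells (log2 0.90, with an interval that includes 0), with cell types from clusters (0.84) or with 6 clusters weighted equally (0.80). Pdgfd was just inside the limit at 1.99-fold (1.48 to 2.71). Pdgfra was 1.18-fold higher (1.01 to 1.38), or 1.10-fold (0.913 to 1.35) without osteogenic, chondrogenic and cycling cells, Pdgfrb was level at 1.01-fold (0.803 to 1.28) and Pdgfc 0.823-fold (0.610 to 1.13). Pdgfa at E14.5 was 3.45-fold E13.5 (1.67 to 8.26), where 9.3% of genes were at least 2-fold higher and 3.37% lower, and 1.98-fold with an interval that includes 1 (0.760 to 6.53) without osteogenic, chondrogenic and cycling cells. In neuronal cells Pdgfa was 14.0, 40.9 and 30.9 CPM, also lowest at E13.5. Those cells lay mostly in other clusters at E13.5 than later. In the neuronal cluster led by Fstl5 and Gm16579, with 37, 121 and 149 cells, Pdgfa was 52.4, 32.7 and 37.5 CPM. The part of background in the mesenchymal difference was not tested. Pdgfd was higher at each step, 1.39-fold to E14.5 (1.01 to 1.93) and from there 1.43-fold to E15.5 (1.22 to 1.69).

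Pdgfrb was lowest in the middle library: E14.5 was 0.714-fold E13.5 (0.553 to 0.926), and E15.5 was 1.41-fold E14.5 (1.19 to 1.68). Without osteogenic, chondrogenic and cycling cells both intervals include 1 (0.752-fold, 0.553 to 1.03, and 1.2-fold, 0.979 to 1.48). In the mesenchymal cells, UMIs of erythroid markers, globins among them, were 2733, 202 and 25.3 CPM in sum, from 5, 7 and 7 of 9 markers. Neuronal markers were 297, 210 and 160 CPM, from 12 of 12 in each library. Epithelial markers were 56.6, 130 and 120 CPM, from 12, 16 and 15 of 16, lowest at E13.5. Of the ligands that were highest in epithelium, Pdgfa was lowest in mesenchyme at E13.5 and Pdgfc was not. Myeloid markers were 4.12, 49.1 and 30.1 CPM, from 3, 11 and 10 of 11, and endothelial markers 126, 134 and 144 CPM, from 9, 13 and 13 of 13. Mesenchymal markers themselves were 4183, 10510 and 11990 CPM, from 12 of 12. The part of these in the stage differences was not tested.

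The mesenchyme was divided into cells with osteogenic markers (7, 62 and 86 cells), chondrogenic markers (38, 57 and 28), cycling markers (58, 180 and 245) and all others (261, 816 and 1333). In the others, Pdgfd had 20, 135 and 337 UMIs, or in CPM 34.6 (21.1 to 53.5), 77.1 (64.6 to 91.2) and 106 (95.3 to 118), so that E15.5 was 3.07-fold E13.5 (1.96 to 5.10), past the 2-fold limit that 11.4% of genes passed upward and 6.42% downward. At E14.5 it was 2.23-fold E13.5 (1.39 to 3.76), where 10.5% of genes passed upward and 5.22% downward. Pdgfa in the others had 5, 30 and 54 UMIs, 8.65, 17.1 and 17.0 CPM, a 1.97-fold ratio with an interval on both sides of 1 (0.794 to 6.31).

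At the later stages Pdgfa was higher in gated chondrogenic and cycling cells than in the others, and at E15.5 in gated osteogenic cells too. At E15.5 osteogenic cells had 26 UMIs, 55.7 CPM (36.4 to 81.6), 3.27-fold the others (1.96 to 5.31), where 6.97% of genes were at least 2-fold higher. Chondrogenic cells had 8 UMIs, 52.7 CPM (22.7 to 104), 3.09-fold (1.27 to 6.53), against 11.2% of genes. At E14.5 the chondrogenic level was 69.8 CPM from 19 UMIs (4.07-fold, 2.17 to 7.48, against 10.8% of genes). The osteogenic level was 38.9 CPM from 10 UMIs (2.27-fold, 0.990 to 4.77, against 8.82% of genes). In the chondrogenic cluster, led by Matn1, Acan and Col2a1, Pdgfa at E14.5 was 18.6 CPM from 3 UMIs (3.84 to 54.4). This is close to the 17.1 CPM of the others, so the E14.5 chondrogenic difference depends on the gate. At E15.5 the cluster had 52.3 CPM from 6 UMIs (19.2 to 114). Cycling cells were 2.21-fold (1.22 to 3.93) and 1.76-fold (1.09 to 2.80) above the others at E14.5 and E15.5, where 6.45% and 5.82% of genes were at least 2-fold higher.

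Pdgfra was lower in osteogenic and chondrogenic cells at the later stages. Osteogenic cells had 35 and 60 UMIs at E14.5 and E15.5, 136 CPM (94.8 to 189) and 128 CPM (98.0 to 165), and the others were 1.90-fold (1.35 to 2.76) and 1.86-fold (1.43 to 2.46) higher. Chondrogenic cells had 24, 47 and 18 UMIs, 173, 173 and 118 CPM, and the others were 1.50-fold higher at E14.5 (1.11 to 2.07) and 2.02-fold at E15.5 (1.27 to 3.42). Cycling cells, at 164, 220 and 268 CPM, did not differ from the others beyond counting error. Pdgfrb at E14.5 was lower in cycling cells (31 UMIs, 50.9 CPM, 0.642-fold the others, 0.420 to 0.953; at E13.5 and E15.5 0.861-fold, 0.492 to 1.45, and 1.12-fold, 0.890 to 1.40) and in chondrogenic cells (11 UMIs, 40.4 CPM, the others 1.97-fold higher, 1.07 to 4.03). In the chondrogenic cluster Pdgfrb was 34.9, 18.6 and 43.6 CPM over the stages. Pdgfd in gated chondrogenic cells at E13.5 was 144 CPM from 20 UMIs, 4.17-fold the others (2.13 to 8.17), where 12.2% of genes were at least 2-fold higher. These cells did not differ from the others later. In the cluster, Pdgfd was 17.4 CPM from 3 UMIs (3.6 to 51) in 61 cells at E13.5, then 68.2 and 105 CPM. The E13.5 difference thus depends on how the chondrogenic cells are taken.

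**Figure D4:**
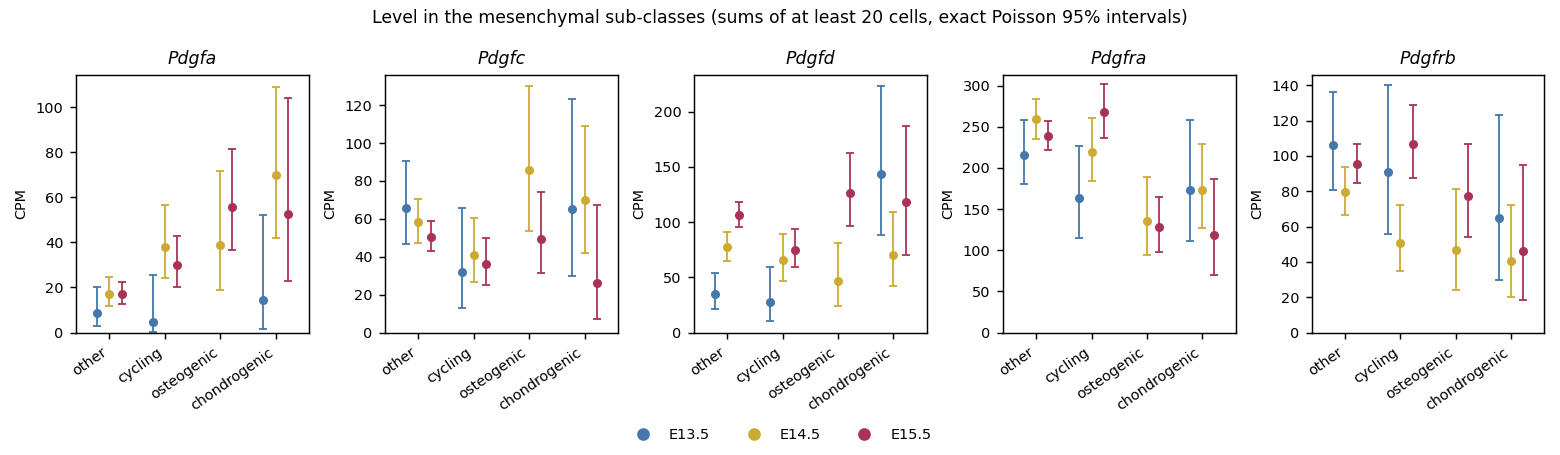
Level (CPM, linear axis from 0, scaled per panel) of 5 members in mesenchymal cells with cycling, osteogenic or chondrogenic markers and in the others, by stage, for sums of at least 20 cells. Points are sums of 1 library and bars exact Poisson 95% intervals. At E15.5 Pdgfa is higher in osteogenic cells (55.7 CPM) than in the others (17.0 CPM), and Pdgfra is lower (128 against 239 CPM).

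Clusters made without the 6 genes gave 7 mesenchymal clusters, of which 5, 7 and 7 held at least 20 cells in the 3 libraries. Pdgfra was found in each of these at 128 CPM or more. The chondrogenic cluster is not among the 7, and its Pdgfra was lower, at 75.6, 62 and 113 CPM. Where cell types were taken from clusters, it was counted as mesenchymal. Of the 7, the highest in Pdgfra at E15.5, led by Ccl21a and Aldh1a2, had 342 CPM from 66 UMIs. The lowest, led by Ibsp, Spp1 and Runx2, genes of bone formation, had 179 CPM from 174 UMIs, 1.91-fold less (1.42 to 2.55). At E14.5 the highest was a cluster led by Pgm5 and Thsd4, at 322 CPM from 163 UMIs. Pdgfd at E15.5 ranged between 213 CPM from 41 UMIs in the cluster led by Ccl21a and Aldh1a2, and 20.6 CPM from 7 UMIs in a cluster led by Kif28 and Zg16, 10.3-fold apart (4.58 to 27.2). The first of these also had the highest Pdgfrb, 197 CPM from 38 UMIs.

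Pdgfc in mesenchyme was highest in a cluster led by Cntn6, C1qtnf3 and Tfap2b, at 113 CPM from 35 UMIs at E14.5 and 73.8 CPM from 60 UMIs at E15.5. It was lowest in a cluster led by Ubash3a and Zfp112, at 17.9 CPM from 5 UMIs and 14.7 CPM from 9, which is 6.31-fold (2.48 to 20.8) and 5.02-fold (2.47 to 11.5) less. In the cluster led by Ccl21a and Aldh1a2, Pdgfd was 47.1, 36.9 and 213 CPM over the stages, and Pdgfc 59.7, 41.5 and 15.6 CPM. The other mesenchymal clusters did not share one direction for Pdgfd. In the cluster led by Kif28 and Zg16 it was 84.5 (50.9 to 132), 41.4 and 20.6 CPM (8.29 to 42.5), lower in the last library than in the first, and in that led by Pgm5 and Thsd4 it was 18.6 (0.471 to 104), 90.8 and 146 CPM (125 to 170). The clusters led by Cntn6 and by Cdh20, under 20 cells at E13.5, had 77.8 and 60.3 CPM and 102 and 105 CPM at the later stages, with intervals that overlap. The cluster led by Ccl21a and Aldh1a2 held 379 cells at E13.5 and 98 and 97 later, so the mesenchyme of the libraries differs in make-up. These are descriptions, with no test.

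Genes whose level followed each member most closely were taken over the 16 sums of a cell type and stage with at least 20 cells, by Pearson's r of log2(CPM + 1) among 12600 genes. These sums share libraries and depth, and r is given with no test. Nearest to Pdgfa were Frem2 (r = 0.932), which encodes a basement membrane protein, Ston2 (0.900) and Ptcd2 (0.869). Nearest to Pdgfb were Itga6 (0.885), an integrin subunit, Orai1 (0.883), a calcium channel, and Icam2 (0.879), an endothelial adhesion molecule. Nearest to Pdgfc were Amer1 (0.928), Sdc1 (0.924), a cell surface proteoglycan, and Prkci (0.920). Nearest to Pdgfd were Gnpda2 (0.896), Stn1 (0.869) and Rbpms (0.865).

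Nearest to Pdgfra were Fibin (0.924), Dkk2 (0.920), a Wnt antagonist, and Cdh11 (0.900), a mesenchymal cadherin. Fibin had 38.1, 67.5 and 85.8 CPM in mesenchyme and 0, 0 and 6.27 CPM in epithelium. Nearest to Pdgfrb were Ednra (0.929), an endothelin receptor, Col11a1 (0.891), a fibrillar collagen, and Daam2 (0.880). Between members, r was 0.735 for Pdgfra and Pdgfrb, 0.667 for Pdgfa and Pdgfc, and -0.502 for Pdgfb and Pdgfrb.

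Other genes of the pathway were counted in mesenchyme from E13.5 to E15.5 in 4 lists, beside the shares of all genes given above and a median log2 ratio over all genes of -0.02. Of 7 genes that process ligands, 5 passed the filter: 1 was at least 2-fold higher and 1 lower, with a median of 0.14. Pcsk6, a proprotein convertase, had 13, 107 and 213 UMIs, 13.4, 37.0 and 44.5 CPM (log2 1.66). Plat, tissue plasminogen activator, which activates PDGF-C, had 12, 26 and 26 UMIs, 12.3, 9 and 5.43 CPM (-1.05). Pcsk5, with the most UMIs of the list, was at 237, 224 and 202 CPM (-0.23), and Furin at 23.7, 31.1 and 26.3 CPM (0.15).

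Of 8 genes whose products bind PDGF ligands or receptors, 7 passed: 3 were at least 2-fold higher and 0 lower, with a median of 0.96. Nrp1, a co-receptor, had 73, 527 and 1424 UMIs, 75.1, 182 and 297 CPM (1.97). Pdgfrl, a secreted receptor-like protein, had 4, 44 and 90 UMIs, 4.11, 15.2 and 18.8 CPM (1.95). Sparc, a matrix protein that binds PDGF-B, had the most UMIs of the list, 279, 1871 and 3698 UMIs, 287, 647 and 772 CPM (1.42). Nrp2, the related co-receptor, was at 206, 159 and 148 CPM (-0.47), and Thbs1, thrombospondin, at 50.4, 62.3 and 50.7 CPM (0.01). With cell types taken from clusters the list's median was 0.37.

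All 22 genes of signal transduction passed, and 0 were past 2-fold in either direction, with a median of 0.21. Pik3r1, the regulatory subunit of phosphoinositide 3-kinase, had the highest ratio (85, 333 and 754 UMIs, 87.4, 115 and 157 CPM, 0.84), followed by the adaptor Shb (13.4, 22.1 and 22.1 CPM, 0.69). The adaptor Grb2 (66.9, 56.1 and 57.0 CPM, -0.23) and the ubiquitin ligase Cbl (73.0, 72.0 and 63.7 CPM, -0.20) had the lowest. Stat3 had the most UMIs, at 184, 179 and 291 CPM. These genes serve many receptors.

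All 13 feedback and target genes passed: 1 was at least 2-fold higher and 2 lower, with a median of 0.20. Ier3, an early response gene, had 8, 39 and 241 UMIs, with 8.23 CPM in the first library and 50.3 in the last (2.48). Spry4, an inhibitor of receptor tyrosine kinase signalling, had 15, 19 and 32 UMIs, 15.4, 6.58 and 6.68 CPM (-1.10), and the transcription factor Etv4 had 9, 13 and 18 UMIs, 9.26, 4.50 and 3.76 CPM (-1.11), with a counting interval of its fold that includes 1 (0.173 to 1.03). Egr1, an immediate-early transcription factor, had the most UMIs and was just under the limit, at 356, 439 and 682 CPM (0.94).

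**Figure D5:**
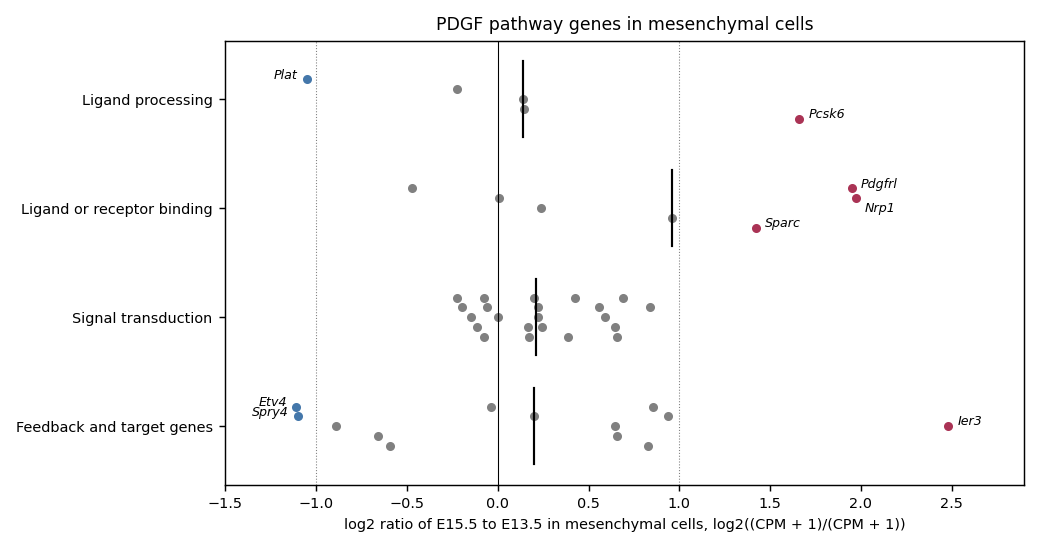
Change from E13.5 to E15.5 in mesenchymal cells, as log2 of CPM + 1 at the later over CPM + 1 at the earlier stage, for the genes of 4 PDGF pathway lists that passed the filter. Each point is a gene, black bars are list medians, dotted lines mark 2-fold, and red and blue points lie past it. The list of binding proteins has the highest median, 0.96, and signal transduction genes all lie between the limits.

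Cells that met no gate numbered 1515, 353 and 375. They had 143, 104 and 106 UMIs of Pdgfa (31.8, 83.1 and 88.2 CPM) and 297, 92 and 96 of Pdgfc (66.1, 73.5 and 79.9 CPM). Pdgfra there was at 46.5, 91.8 and 57.4 CPM and Pdgfrb at 19.4, 31.9 and 34.9 CPM, below mesenchyme in each library. Muscle cells, 8, 10 and 5 in number, had 4, 2 and 8 UMIs of Pdgfc, or in CPM 161 (44.0 to 413), 57.4 (6.95 to 207) and 497 (215 to 980). They had 5, 2 and 4 UMIs of Pdgfa, or in CPM 202 (65.5 to 471), 57.4 (6.95 to 207) and 249 (67.7 to 636), and 0 of either receptor. At E15.5 these few cells had higher point values than epithelium for both ligands, with intervals that overlap the epithelial ones.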

How the data were processed

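The deposited matrices held counts, whole UMIs per gene and cell barcode for 3 libraries, made by the authors with Cell Ranger 6.1.2 on mm10, per the submitters' processing notes. The annotation, strand setting and treatment of introns are not given in the sources used here. Cells with at least 500 genes and at most 20% mitochondrial UMIs were kept. Scrublet in scanpy 1.11.5 called 5 doublets (0.053%) at its automatic threshold, so the top scores were left out at 0.8% per 1000 barcodes (125, 30 and 66 barcodes). 5 barcodes occurred in more than 1 library.

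For each cell the share of every class's markers with a UMI was taken, and the cell joined the leading class, given at least 3 markers and a next class at no more than 60% of that share. Mesenchymal markers did not count against the mural class. These limits were settled after cell numbers were seen. Osteogenic and chondrogenic cells needed 3 markers, and cycling, stratified and simple cells 2. Of the marker genes, 1 was not found. Leiden clusters (igraph 0.11.9), made without the 6 genes, were an alternative. UMIs were summed per class and library, and genes with a mean of 5 CPM entered counts of 2-fold differences, with 1 CPM added. Named genes were the 6 members, the 3 most alike to each (at least 20 CPM in 1 sum, no gate markers), and in each pathway list the 2 highest and 2 lowest ratios and the highest level. The members and lists were chosen with earlier results of these data known. The calculations were tested on simulated data. Alternatives changed the cell and gene filters, doublets, gate, cell weights, thinning depth and make-up of the mesenchyme. Python 3.11.15, numpy 2.4.6, scipy 1.17.1 and pandas 2.3.3 were used.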

Additional observations from a re-analysis of the deposited data

How the results depend on the processing

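Of 534 alternative values, 487 stayed within their limits, 46 moved beyond them and 1 changed sign from a reported value whose counting interval excludes 1. Signs also changed in 17 values of ratios whose reported interval includes 1 and in 2 of list medians. Limits were the reported counting intervals, which are wide at low counts, or a fixed margin for the pathway lists. Of the 24 values for shares of cells, 14 moved and 10 did not. With cell types from clusters, the log2 ratio of epithelium to mesenchyme was 2.78 for Pdgfa at E15.5 (3.09 as reported) and 2.52 for Pdgfc at E13.5 (1.65), and that of endothelium to mesenchyme 6.05 for Pdgfb at E14.5 (7.26). Epithelial levels at E15.5 were then 175 CPM for Pdgfa and 149 CPM for Pdgfc, the binding list's median was 0.37, and 1 ligand processing gene and 1 feedback gene were past 2-fold. Keeping all doublets, or averaging the cells' own CPM, also gave 1 ligand processing gene. Without mitochondrial, ribosomal protein and globin genes, Pdgfra in mesenchyme at E15.5 was 252 CPM. Without osteogenic, chondrogenic and cycling cells, the log2 ratio between the first and last stage was 1.59 for Pdgfd and 0.90 for Pdgfa (1.47 as reported).

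The next alternatives were chosen after seeing the data. With epithelial cells in epithelial clusters alone, the log2 ratio of epithelium to mesenchyme for Pdgfc at E14.5 was 0.86, and with stratified and simple cells alone 0.59. A further alternative weighted 6 clusters equally in each library, the chondrogenic cluster among them. The log2 ratio between the first and last stage was then -0.82 for Pdgfc, 1.51 for Pdgfd and 0.49 for Pdgfrb. Pdgfrb at E15.5 was 109 CPM, and 0 ligand processing genes were past 2-fold. The log2 ratio of Pdgfc from E14.5 to E15.5 was 0.0765 in place of -0.31. With markers counted only at their mean level or above, 1 ligand processing and 1 signal transduction gene were past 2-fold. 

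At E15.5, thinning to 1000 UMIs gave shares of 21.1% for Pdgfra, 8.64% for Pdgfrb, 19.8% for Pdgfa and 13.2% for Pdgfc, and no thinning 38.9%, 19.5% and 39.8% for the first 3. Apart from the depth itself and the added or removed cells, the cause was not tested. No paired analysis was possible because the stages compared have 1 library each and share 1 replicate number, so no replicate could be left out. Cell types share the libraries, and a test of them across libraries was not run. Depth limits Pdgfb in every class, and classes under 20 cells at E13.5.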

Other observations

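Clusters that stayed unnamed also held UMIs of the family. The cluster led by Pomc, Oc90 and Cga, with 150, 109 and 98 cells over the stages in order, had Pdgfa at 127, 178 and 83.5 CPM and Pdgfc at 108, 106 and 70.3 CPM. Its Pdgfra was at 7.35, 18.2 and 13.2 CPM. A cluster led by the muscle genes Actc1, Myog and Ttn, with 50 and 31 cells at E14.5 and E15.5, had Pdgfra at 137 and 130 CPM, Pdgfc at 116 and 107 CPM and Pdgfd at 83.9 and 127 CPM. Its median depth was 7638 and 6552 UMIs, 4.06-fold and 3.32-fold that of the library's cells, while the few cells that met the muscle gate had 0 UMIs of Pdgfra. At E13.5 a cluster of 239 cells led by embryonic globins and neuronal genes had Pdgfra at 44.5 CPM and Pdgfc at 61.4 CPM, at 3.25-fold the library's median depth.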
